A study of Danio rerio with 10 samples.

Results

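The erythroid transcription factors gata1a, klf1, tal1 and lmo2 were followed in hearts of zebrafish kept in hypoxia or in normoxia. Each of these 4 genes was represented by 1 probe set, the rows whose single gene symbol in the array annotation is that of the gene, out of 8793 named genes and 15617 probe sets on the Affymetrix Zebrafish GeneChip. None was chosen by its measured value. All 4 passed the filter on low intensity and lay above the background bound of 27.0 intensity units on all 10 arrays.

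GATA1 is a zinc finger factor that binds GATA motifs and switches on globin, heme synthesis and red cell membrane genes. TAL1, a basic helix-loop-helix protein, and LMO2, a LIM domain protein that bridges partners without binding DNA itself, sit with GATA1 and LDB1 in a complex on many of these genes. KLF1 is a Krüppel-like zinc finger factor that acts on red cell genes, beta globin among them, in the later steps of differentiation. Zebrafish red cells keep their nucleus and circulate with RNA, so RNA from a heart includes that of the blood inside it. TAL1 and LMO2 are also known from the shared precursors of blood and endothelium, and GATA1 and TAL1 from thrombocytes.

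Total RNA from hearts was labelled with biotin and hybridized to 10 arrays, 5 from hypoxia and 5 from normoxia, to compare heart transcripts between the oxygen conditions. The labels do not give the strain, sex and age of the animals, how low the oxygen was and for how long, or how many hearts made up a sample. The labels name 4 biological samples in each group and describe array 5 of each group as a repeat of sample 2. Log2 differences between arrays, taken over 2247 bright probe sets, had an SD of 0.105 for the hypoxia repeat and 0.151 for the normoxia repeat. It was 0.112 between hypoxia 1 and hypoxia 4, slightly above the repeat of that group and below the other, and 0.0927 between normoxia 3 and normoxia 4, below both. Other pairs within a group spanned 0.268 to 0.635. Pairs whose SD did not exceed the larger of the 2 repeat values entered as 1 sample each, so that each group had 3 samples, called hypoxia 1/4, 2 and 3 and normoxia 1, 2 and 3/4. This choice decides several calls below, and values for the 8 samples as labelled stand beside them. Nothing in the labels says whether samples came from separate animals, so p-values measure the spread between these samples.

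The series as a whole had median intensities of 36.2 to 51.6 per array, and the number of arrays limits the precision. Arrays fell into 3 hybridization runs, each with both groups. Of 10851 probe sets tested in limma, 3.98% had an adjusted p under 0.05: 0.968% were higher with hypoxia and 3.01% were lower. The heart muscle light chain gene myl7 read 12.82 in hypoxia and 12.84 in normoxia on the log2 scale, as a check of the tissue. Summed intensity of the 11 heart muscle markers on the array was 41074 to 43026 in hypoxia and 45943 to 48216 in normoxia. Signal from liver genes varied most, with a summed intensity of 22909 to 40538 in hypoxia and 3482 to 18169 in normoxia over 19 markers. In bulk heart RNA, a change in the number of cells of a type cannot be told apart from a change in RNA per cell.

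All 4 factors had higher mean levels in hypoxia, by 1.28-fold for klf1, 1.61-fold for gata1a, 1.77-fold for tal1 and 1.93-fold for lmo2. None passed the threshold over all probe sets in limma with 3 samples a group, where 0 of 4 stand against the 3.98% of probe sets called. Without adjustment 3 of 4, all but klf1, had p under 0.05, as did 21.2% of probe sets. The same 3 of 4 had hypoxia samples that all lay above all normoxia samples, as 9.96% of probe sets did, and 27.2% had no overlap in either direction. With the 8 samples as labelled gata1a, tal1 and lmo2 passed, 3 of 4 against 12.9% of probe sets, or 4.38% in this direction. Hypoxia 1/4 was the highest sample for every factor, and normoxia 3/4 the lowest.

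**Figure D1:**
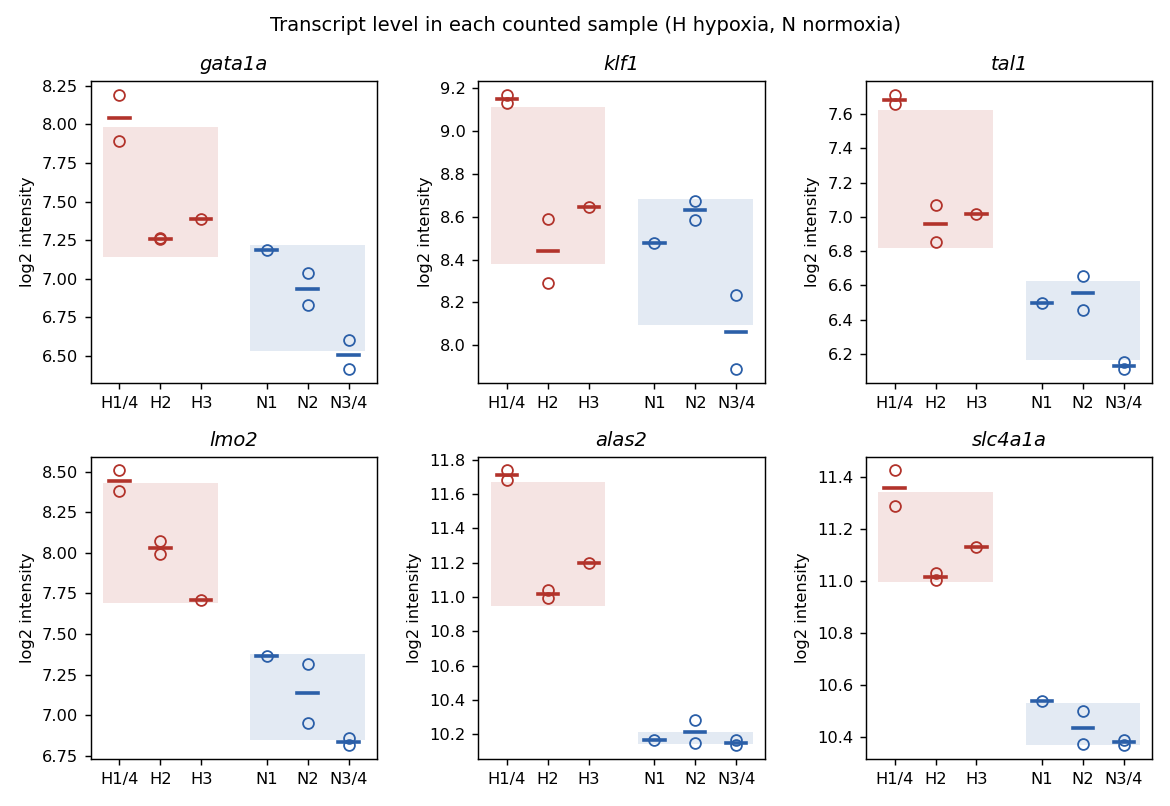
Log2 intensity (y axes, each with its own range) of the 4 factors and of alas2 and slc4a1a in the 6 counted samples (x axes). Circles are arrays, bars the value of each sample, and shaded bands the group mean ± SD over 3 samples; klf1 is the gene whose groups overlap.

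For gata1a, the log2 intensities in hypoxia were 8.04 in sample 1/4, 7.26 in sample 2 and 7.38 in sample 3. In normoxia they were 7.18 in sample 1, 6.93 in sample 2 and 6.51 in sample 3/4. The groups did not overlap, but the gap between hypoxia 2 and normoxia 1 was 0.08, less than the 0.21 by which the 2 arrays of normoxia 2 differed. The group means were 7.56 ± 0.42 and 6.87 ± 0.34 (SD, n = 3), a difference of 0.69 ± 0.26 (SE) with a 95% interval of 0.08 to 1.30 and an adjusted p of 0.193 in limma. Within hypoxia the samples spanned 0.78 and within normoxia 0.68, so the spread inside each group was about as wide as the difference between them. On the array scale the normalized intensity ran from 84.1 on normoxia array 3 to 291 on hypoxia array 1. By hybridization run the difference was 0.61 in run 1, 1.13 in run 2 and 0.43 in run 3. Runs 1 and 2 held 2 arrays per group and run 3 held 1, the repeats of sample 2. Sample 2 thus entered runs 1 and 3, and hypoxia 1/4 entered runs 1 and 2. Both normoxia arrays of run 2 were of sample 3/4. The runs share samples and are not independent. Without hypoxia 1/4 the difference was 0.45 (adjusted p = 0.350 in limma), and with the 8 samples as labelled it was 0.90 (adjusted p = 0.0404).

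For tal1, the hypoxia samples read 7.68 in 1/4, 6.96 in 2 and 7.02 in 3. The normoxia samples read 6.50 in 1, 6.56 in 2 and 6.13 in 3/4. A gap of 0.41 separated the lowest hypoxia sample from the highest normoxia sample, and the repeat arrays differed by 0.21 in hypoxia and 0.19 in normoxia. Means were 7.22 ± 0.40 in hypoxia and 6.40 ± 0.23 in normoxia (SD, n = 3), which differed by 0.83 ± 0.23 (SE), with a 95% interval of 0.29 to 1.37 and an adjusted p of 0.105 in limma. The difference was 0.68, 1.24 and 0.61 in runs 1, 2 and 3. It was 0.59 without hypoxia 1/4 (adjusted p = 0.161 in limma) and 1.01 with the samples as labelled (adjusted p = 0.0142).

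For lmo2, the levels in hypoxia were 8.44 in 1/4, 8.03 in 2 and 7.71 in 3. In normoxia they were 7.37, 7.13 and 6.84 in samples 1, 2 and 3/4. The groups were apart by 0.34, close to the 0.37 between the 2 arrays of normoxia 2. This factor had the largest difference of the 4, at 0.95 ± 0.22 (SE), from means of 8.06 ± 0.37 and 7.11 ± 0.27 (SD, n = 3). Its 95% interval was 0.43 to 1.47 and its adjusted p 0.0693 in limma. All 3 runs, which share samples, gave a difference near this size, 0.84, 1.27 and 1.12. The value was 0.76 without hypoxia 1/4 (adjusted p = 0.131 in limma), 1.02 with cyclic loess scaling (adjusted p = 0.0490) and 1.11 with the samples as labelled (adjusted p = 0.00753).

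For klf1, hypoxia 1/4 read 9.15, hypoxia 2 read 8.44 and hypoxia 3 read 8.65. The normoxia samples read 8.48 in 1, 8.63 in 2 and 8.06 in 3/4. The groups overlapped, because hypoxia 2 lay below normoxia 1 and normoxia 2. Repeat arrays of hypoxia 2 differed by 0.30, nearly the size of the group difference of 0.36 ± 0.22 (SE), whose 95% interval ran from -0.17 to 0.88 (adjusted p = 0.408 in limma). The interval covers no change and a rise of up to 1.84-fold. By run the difference was 0.20 and 0.83 in runs 1 and 2 and turned to -0.085 in run 3. It was 0.15 without hypoxia 1/4 and 0.19 without normoxia 3/4 (adjusted p = 0.717 and 0.651 in limma), and 0.54 with the samples as labelled (adjusted p = 0.123), and none of the 20 other fits brought it past the threshold.

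The difference between the groups was smallest for klf1, and no relation between pairs of factors within groups passed its test. Taking each pair of factors sample by sample, klf1 minus lmo2 was lower in hypoxia by 0.59 log2, klf1 minus tal1 by 0.47 and klf1 minus gata1a by 0.33, and in each of these the groups did not overlap. The exact two-sided permutation p was 0.1 for each of these 3, the smallest that 3 against 3 samples allow, and 0.15 adjusted over the 6 pairs. The value of gata1a minus tal1 was -0.14, also without overlap and at the same exact permutation p. The values of gata1a minus lmo2 (-0.26) and tal1 minus lmo2 (-0.12) overlapped, at exact permutation p of 0.2 and 0.5. The share of all gene pairs without overlap was not counted, while 27.2% of single probe sets had none in either direction. After removing group means, Pearson r between pairs of factors over the 6 samples was 0.74 to 0.97 and Spearman rho 0.77 to 1, with exact permutation p within groups of 0.125 to 0.194 for r and 0.167 for rho, adjusted over the 6 pairs. Before adjustment klf1 with tal1 had r = 0.97 and rho = 1, at an exact permutation p of 0.0278 for each. This is the smallest that 36 rearrangements allow, and a single pair at it cannot pass when adjusted over 6 pairs. Without hypoxia 1/4 and normoxia 3/4, which leaves 2 samples a group, r was 0.99 for klf1 with tal1 and at most 0.15 for the other 5 pairs. It was -0.9999 for klf1 with lmo2 and -0.99 for tal1 with lmo2. Each of these r values comes from 1 difference between samples in each group. For tal1 and klf1, hypoxia 2 and 3 lay closer than the repeat arrays of hypoxia 2. The r values therefore do not show which relations hold without the samples left out. The pairs were compared after the values had been seen.

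The red cell genes alas2 and slc4a1a were measured beside the factors. ALAS2 is the first and rate-limiting enzyme of heme synthesis in red cells, and slc4a1a encodes the anion exchanger of the red cell membrane, known as band 3. For alas2 the hypoxia samples read 11.71, 11.02 and 11.20 in 1/4, 2 and 3, and the normoxia samples 10.17, 10.22 and 10.15 in 1, 2 and 3/4. For slc4a1a they read 11.36, 11.02 and 11.13 in hypoxia and 10.54, 10.44 and 10.38 in normoxia, in the same sample order. Both were clear of overlap, by 0.80 for alas2 and 0.48 for slc4a1a. Both rose, alas2 by 1.13 ± 0.17 (SE, adjusted p = 0.0269) and slc4a1a by 0.72 ± 0.10 (adjusted p = 0.0235) in limma. Both calls were lost without hypoxia 3 and without any 1 of the normoxia samples, with adjusted p up to 0.0931, and with the deposited values, no filter or no intensity trend.

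Relative to alas2 each factor had a lower mean value in hypoxia. So did most probe sets, since the rise of alas2 was at or above the difference of 96.7% of those tested. For 3 factors every hypoxia sample lay below every normoxia sample. The share of all probe sets that did so relative to alas2 was not counted. The factor minus alas2 difference was -0.77 for klf1, -0.44 for gata1a, -0.31 for tal1 and -0.18 for lmo2 (log2, hypoxia minus normoxia). For klf1, gata1a and tal1 the groups of these sample-wise differences did not overlap, at an exact permutation p of 0.1 (adjusted p = 0.267 over 8 comparisons), the smallest the design allows, and lmo2 had an exact permutation p of 0.5. With the deposited values and with median scaling the groups of klf1 still had an exact permutation p of 0.1. Under both gata1a had -0.35 (exact permutation p = 0.3) and tal1 -0.17 (exact permutation p = 0.4). Median scaling multiplies a whole array by a constant, which nearly cancels when a red cell gene is subtracted. The likeness of these settings was thus fixed in advance. Without normoxia 1 the value of gata1a was -0.28. That of lmo2 was -0.050 without normoxia 1, -0.061 without hypoxia 3, and -0.31 without hypoxia 2 or without normoxia 3/4. Relative to slc4a1a the values were -0.36 for klf1, -0.03 for gata1a, 0.11 for tal1 and 0.23 for lmo2, with overlapping groups and exact permutation p of 0.2 to 1. The sign for gata1a against slc4a1a turned with the other scalings. It was 0.082 with the deposited values and with median scaling, alike by construction, and 0.014 with cyclic loess.

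Within groups, r between a factor and a red cell gene was above 0 in all 8 relations, but none passed after adjustment. Because alas2 and slc4a1a each fell into 2 separate clusters by group, no correlation was pooled over the groups, and group means were removed first. In hypoxia the order of samples was 1/4, then 3, then 2 for alas2, slc4a1a, gata1a, tal1 and klf1, while lmo2 had 2 above 3. Hypoxia 2 and 3 read 6.96 and 7.02 for tal1 and 8.44 and 8.65 for klf1. They lay closer than the repeat arrays of hypoxia 2, which differed by 0.21 and 0.30, so their order is not resolved for these 2 genes. In normoxia alas2 spanned only 0.06, less than the 0.13 between the repeat arrays of normoxia 2, so the order of its normoxia samples is not resolved, while gata1a and lmo2 spanned 0.68 and 0.53. For slc4a1a the normoxia order 1, 2, 3/4 was that of gata1a and lmo2. Neighbours in this order lay closer in slc4a1a than the 0.13 between the repeat arrays of normoxia 2.

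Over the 6 samples with group means removed, gata1a had r = 0.94 and rho = 0.94 with slc4a1a, at an exact permutation p of 0.0278 for each, the smallest of 36 rearrangements within groups. For klf1 with alas2 r and rho were both 0.83, and for tal1 with alas2 they were 0.88 and 0.83, with the same exact permutation p for all. Adjusted over the 8 relations these p-values were 0.0741. The other 5 relations had r of 0.63 to 0.90 and rho of 0.77 to 0.89, at adjusted exact permutation p of 0.111 to 0.417 for r and 0.133 to 0.194 for rho. The 2 samples farthest from the median of slc4a1a were hypoxia 1/4 and normoxia 3/4. Without them r with slc4a1a was 0.93 for gata1a, 0.21 for klf1, 0.08 for tal1 and -0.23 for lmo2. These values come from 2 samples a group, and normoxia 1 and 2 differed in slc4a1a by less than the repeat arrays of normoxia 2 did. They do not show which relations to slc4a1a hold without the samples left out. For alas2 the samples farthest from the median were hypoxia 1/4 and hypoxia 3. Without them 1 hypoxia sample is left, so r (0.36 for gata1a, 0.85 for klf1, 0.76 for tal1 and 0.29 for lmo2) comes from the 3 normoxia samples, whose alas2 order is not resolved. These values do not show whether the relations to alas2 hold without the samples left out. A hybridization run held at most 2 arrays of a group, too few for a value within a run.

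**Figure D2:**
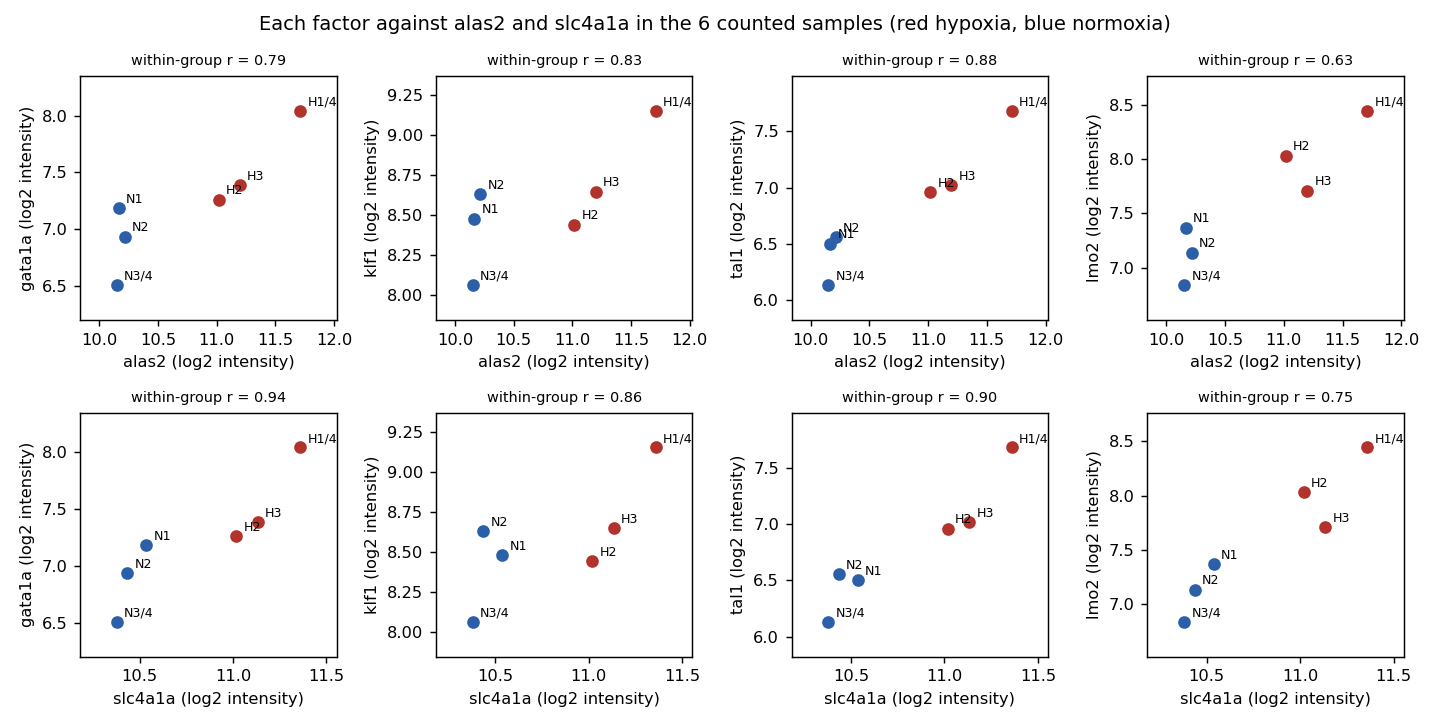
Log2 intensity of each factor (y axes) against alas2 (upper row, x axes) and slc4a1a (lower row, x axes) in 3 hypoxia samples (red, H) and 3 normoxia samples (blue, N), with r after removing group means. The red cell genes separate the groups on every x axis, and H1/4 is the highest point in every panel.

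Of the wider red cell list, 9 of 25 tested genes rose and 0 fell, with a median difference of 0.57 against -0.05 over all probe sets tested; 3.98% of all probe sets were called. Several of its members were known to have risen here when the list was written, so it is not independent evidence. The embryonic beta globin gene hbbe2 rose by 1.79, the nucleotidase gene nt5c2l1 by 1.22, uros, which encodes a heme synthesis enzyme, by 1.18 and the biliverdin reductase gene blvrb by 1.16. All 4 were past the threshold in limma. The adult globin genes hbaa1 and hbba2 differed by 0.09 and 0.06 (adjusted p = 0.217 and 0.744 in limma). At 13.05 in hypoxia and 12.97 in normoxia, hbaa1 lay near the top of the intensity scale. Quantile normalization leaves little room for a difference there, so a rise of hbaa1 could be hidden. The level of hbba2 was lower, at 12.22 and 12.16. Over the list, 22 of 25 differences were above 0 and 3 below. Leaving out hypoxia 3 brought the count of 9 to 0, leaving out hypoxia 1/4 brought it to 5, and dropping normoxia 1, 2 or 3/4 gave 2, 2 or 3. With the deposited values it was 1. Summed over the 28 red cell genes on the array, intensity was 32401 to 40204 in hypoxia, highest in hypoxia 1/4, and 25663 to 27759 in normoxia. The hypoxia sample with the highest levels of all 4 factors was thus also the one with the most red cell signal. Liver signal, summed over 19 markers, had another order. In hypoxia it was lowest in 1/4 (22909), then 34859 in 3 and 40538 in 2. In normoxia it was 3482 in 1, 12328 in 2 and 18169 in 3/4. The order of gata1a and slc4a1a was the reverse of this in both groups, although normoxia neighbours of slc4a1a are not resolved. That of tal1 and klf1 was its reverse in hypoxia, and that of lmo2 in normoxia. The part of red cell or liver content in the factors' differences and relations was not tested.

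Other erythroid and blood regulators gave no call. Of 72 listed genes 41 were on the array and 35 were tested; 0 rose and 0 fell in limma, against 3.98% of all probe sets called, 7 had an unadjusted p under 0.05, against 21.2% of all probe sets, and the median difference was -0.07 against -0.05 over all probe sets. With the samples as labelled 5 of 35 rose, klf17, drl, ikzf1, klf11a and jak2a. That fit called 4.38% of all probe sets higher and 12.9% in either direction. The probe set of ikzf1 was above the background bound on 5 hypoxia arrays and 2 normoxia arrays. With cyclic loess klf11a rose.

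Of the measured partners of the GATA1 complex, ldb1a, whose product holds the complex together through LMO2, had 7.62 ± 0.16 in hypoxia and 7.79 ± 0.13 in normoxia (SD, n = 3, difference -0.17), and -0.24 at a probe set that was under the background bound on all arrays. The gene tcf12, for an E protein that pairs with TAL1, had a difference of -0.55 (adjusted p = 0.210 in limma), with -0.12 and -0.07 at its 2 other tested probe sets. Another E protein gene, tcf3a, had -0.20 and was under the background bound on all 10 arrays. The second LDB1 gene, ldb1b, was also under the background bound on all 10 arrays and did not pass the filter, at 3.66 in hypoxia and 2.01 in normoxia. Of these partners, ldb1a and tcf12 had probe sets above the bound, and none was past the threshold.

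Among related factors, gata2a, known from blood stem and progenitor cells, differed by 0.35 with an SD of 0.80 in hypoxia. The gene nfe2, for a factor of red cell and thrombocyte genes, read 6.05 ± 0.56 with hypoxia and 5.44 ± 0.29 with normoxia (SD, n = 3), at an adjusted p of 0.306 in limma. The Krüppel-like factor gene klf17, known from zebrafish embryos to act in early erythroid cells, had 0.90 ± 0.27 (SE, adjusted p = 0.123 in limma), and drl, a zebrafish zinc finger gene of early blood and heart mesoderm, 1.04 (adjusted p = 0.111). The myeloid factor gene spi1b had -0.06, with -0.27 at its other probe set. Runx1 and myb were under the background bound on all 10 arrays. The erythropoietin gene epoa, whose hormone drives red cell production, had 9.59 ± 0.14 in hypoxia and 9.66 ± 0.13 in normoxia (SD, n = 3), a difference of -0.07 with a 95% interval of -0.31 to 0.18 (adjusted p = 0.741 in limma). The gene jak2a, for a kinase that acts below the erythropoietin receptor, had 0.46 (adjusted p = 0.131 in limma), and its paralogue jak2b -0.23.

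**Figure D3:**
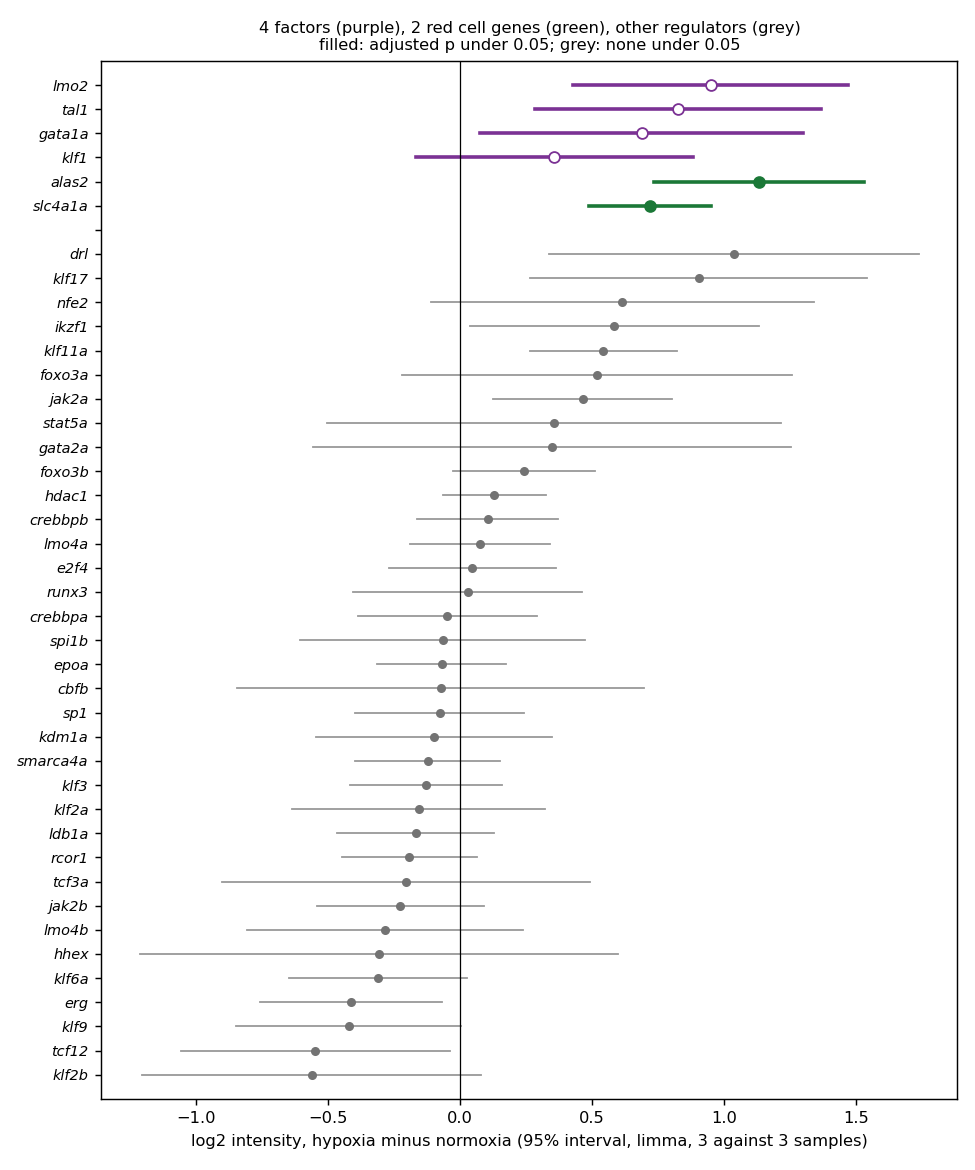
Log2 difference between hypoxia and normoxia with its 95% interval from limma (x axis) for the 4 factors (purple), alas2 and slc4a1a (green) and the 35 tested genes of the regulator list (grey), 3 samples per group. Of the purple and green points only the green ones are filled, as past an adjusted p of 0.05, no grey gene passed it, and the interval of klf1 alone among the purple ones crosses 0.

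Markers of endothelium, thrombocytes and leukocytes gave no call, against 3.98% of all probe sets called. At that share, no call in 9, 5 or 15 tested genes does not set these lists apart. Endothelial markers had 0 of 9 tested genes past the threshold and a median difference of 0.01, with 5 of 9 above 0. The receptor gene kdrl, a defining endothelial marker, read 9.27 ± 0.20 in hypoxia and 9.22 ± 0.20 in normoxia (SD, n = 3). Summed over the 11 endothelial markers on the array, intensity was 3060 to 3241 in hypoxia and 3563 to 3744 in normoxia. The brightest of them, aqp8a.1, read 10.95 in hypoxia and 11.26 in normoxia (adjusted p = 0.0833 in limma) and weighs most in this sum, while the mean log2 level over the list overlapped, at 6.69 to 6.97 in hypoxia and 6.81 to 6.97 in normoxia. The endothelial markers notch1b and ephb4a were under the background bound on all 10 arrays, and cd34 and efnb2a, which were tested, were above it on 1 array each.

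Thrombocyte markers had 0 of 5 past the threshold, a median of 0.01, and a summed intensity of 403 to 508 in hypoxia, with the top value in hypoxia 1/4, against 352 to 499 in normoxia. Of these itga2b, which encodes the integrin that defines thrombocytes, differed by 0.14 (adjusted p = 0.772 in limma), and gp1bb, for a platelet adhesion receptor, by 1.19 (adjusted p = 0.0828). The tested marker selp was under the background bound on all 10 arrays. Leukocyte markers had 0 of 15 past the threshold and a median of -0.11, with 5 above 0 and 10 below. Their summed intensity was 6976 to 8965 in hypoxia and 6727 to 8648 in normoxia. Within hypoxia they were highest in sample 1/4 and within normoxia lowest in sample 3/4, as the 4 factors were. The leukocyte phosphatase gene ptprc had -0.44 (adjusted p = 0.239 in limma). The neutrophil gene mpx read 5.10 in hypoxia and 4.10 in normoxia (adjusted p = 0.318 in limma). This mpx probe set was above the background bound on 4 arrays. The leukocyte marker lyz read 8.15 in hypoxia and 6.89 in normoxia, a difference of 1.26 (adjusted p = 0.250 in limma). The part of these cells in the factors' levels was not tested. Of 20 tested genes of dividing cells 1 was called, against 3.98% of all probe sets, with a median of 0.11. This was kif20a, a kinesin gene of cell division, which rose from 8.69 to 11.25. It weighs most in the list's summed intensity of 3894 to 4397 in hypoxia and 1615 to 1750 in normoxia. Another kif20a probe set, at 0.12 in hypoxia and 0 in normoxia, was under the background bound on all 10 arrays and did not pass the filter. The defining markers mki67 and cdk1 differed by 0.18 and 0.06. Larger differences in birc5b (2.68), plk1 (2.23) and ccnb1 (1.48) were not past the threshold (adjusted p = 0.229, 0.188 and 0.273 in limma), and birc5b and plk1 were above the background bound on 3 of 10 arrays.

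The probe sets most alike to each factor over the 6 samples are given as a description, since with 6 samples high values of r are common among the 7986 named probe sets compared. For tal1 they were tpd52l2b (r = 0.995), jak2a (r = 0.995) and the water channel gene aqp1a.1 (r = 0.994), which is on the red cell list and differed by 0.76 (adjusted p = 0.0547 in limma). For gata1a they were lsm8 (r = 0.998), the lipoxygenase gene alox5b.3 (r = 0.996) and zgc:111986 (r = 0.989). For klf1 they were the ubiquitin ligase gene stub1 (r = 0.991), ap1s2 (r = 0.989) and gtf3c3 (r = 0.975), and for lmo2 the cell death gene bida (r = 0.999), the homeobox gene pbx2 (r = 0.996) and chmp2a (r = 0.987). No gene stood among the 3 most alike of more than 1 factor. These r values hold the group difference as well as the spread within groups, and 21 to 57 named probe sets had r above 0.95 with each factor.

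**Figure D4:**
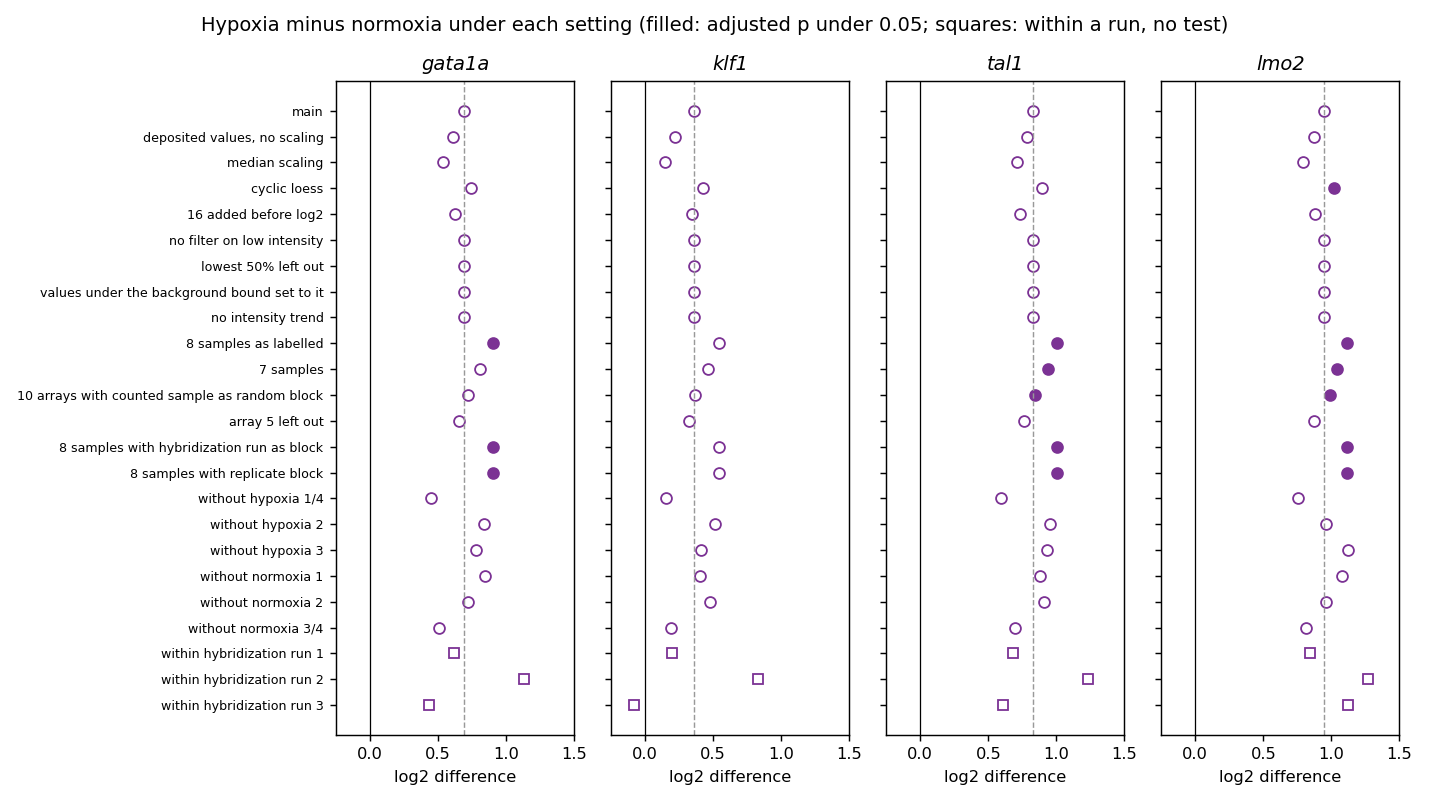
Hypoxia minus normoxia on the log2 scale (x axes) of each factor under each way of processing (y axis); filled circles passed an adjusted p of 0.05 in limma, squares are values within 1 run with no test, and the dashed line is the value reported above. Points for lmo2, tal1 and gata1a are all above 0, while klf1 is at -0.085 in run 3 and is filled nowhere.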

How the data were processed

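RNA of zebrafish hearts, 5 arrays in hypoxia and 5 in normoxia, was read on Affymetrix Zebrafish GeneChips. The authors deposited 1 intensity per probe set and array, on a linear scale, with 7.86 to 10.1% of values at or below 0; the software that made them is not given in the sources used here. Each array's deposited record holds another kind of entry, text on fluidics and scanning, from which the runs were taken. Those of array 5 in both groups mention an abort.

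Intensities were quantile normalized, 1 was added, results under 1 were set to 1, and log2 was taken. Arrays of 1 sample were averaged. Control probe sets (115) and the lowest 30% by mean were left out, which left 10851. The background bound was 2 times an SD of 13.5 estimated from values below 0. limma 3.58.1 (R 4.3.3; lmFit, eBayes with intensity trend) was run two-sided with Benjamini-Hochberg adjustment over all probe sets. Genes with several probe sets were represented by that of the highest mean. Scripts were tested on simulated data; Python 3.11.15, pandas 2.3.3 and matplotlib 3.10.9 served for names and figures.

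The annotation gave 1 symbol to 10802 probe sets, several to 135 and none to 4680. Named were all probe sets of the 4 factors, alas2 and slc4a1a, measured partners of the GATA1 complex, up to 4 called members of a list with the largest change, defining markers, and the 3 probe sets most alike to each factor. Epoa, jak2a, jak2b, klf17, drl, hbaa1, hbba2, gp1bb, selp, aqp8a.1, cd34, efnb2a, lyz, birc5b, plk1 and ccnb1 were named after their values had been seen. So were the 5 regulators called with labelled samples. Members, lists and tests were chosen with earlier results of these data known. Liver markers had 3 of 19 called higher (hpxa, hp, crp) and heart muscle markers 3 of 11 called lower (atp2a2a, ttn.2, myh7). Alternatives covered scaling, the number added, filters, background, trend, counted samples, runs and single samples left out.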

Additional observations from a re-analysis of the deposited data

How the results depend on the processing

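The difference of each factor lay above 0 in all 20 alternative fits. It was 0.45 to 0.90 for gata1a, 0.15 to 0.54 for klf1, 0.59 to 1.01 for tal1 and 0.76 to 1.13 for lmo2. Fits that changed only the filter, the background bound or the trend could not alter these differences. Those with a run or replicate block over the 8 samples return the 8-sample values by construction. Such fits add nothing on the sign. Calls depended on which arrays count as 1 sample. With 8 samples as labelled, and also with the run as a block, gata1a (0.90), tal1 (1.01) and lmo2 (1.11) passed. With 7 samples tal1 (0.94) and lmo2 (1.04) passed, as they did with all 10 arrays and a random block (0.85 and 0.99), and with cyclic loess lmo2 (1.02) did. In run 2 alone gata1a, klf1, tal1 and slc4a1a had 1.13, 0.83, 1.24 and 0.90, and klf1 had -0.085 in run 3. Run 2 held only sample 3/4 of normoxia, the lowest normoxia sample for these genes. Run 3 held only sample 2 of each group, which for klf1 read 8.44 in hypoxia and 8.63 in normoxia. The cause was not tested.

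The 432 calls became 103 with the deposited values (43 higher, 60 lower, against 105 and 327), 790 with median scaling (76 and 714), 370 with cyclic loess (140 and 230), 171 with no filter, 2 with no trend, 1397 with 8 samples, 1465 with the run as a block, 818 with 7 samples, 1013 with 10 arrays, and 1 (without hypoxia 3) to 226 with a sample left out. The value of alas2 was 0.96, 1.13 and 1.13 and that of slc4a1a 0.53, 0.72 and 0.72 with the deposited values, no filter and no trend, each no longer past the threshold, and 0.93 to 1.28 and 0.63 to 0.80 with a sample left out. Of the red cell genes 1 rose with the deposited values and 0 to 7 with a sample left out. Of the regulators 1 rose with cyclic loess and 5 with 8 samples.

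Relative to slc4a1a, gata1a turned to 0.082 (deposited values and median scaling, alike by construction), 0.014 (cyclic loess) and 0.12 (8 samples). With a sample left out gata1a ran from -0.18 to 0.079 and tal1 from -0.030 to 0.19. Relative to alas2, klf1 had -0.70 with 8 samples (exact permutation p = 0.0286). This p is the smallest that 4 against 4 samples allow and was not adjusted over the 8 comparisons. Relations within groups passed with the deposited values for gata1a, klf1 and tal1 with alas2 (r = 0.91, 0.89 and 0.95) and with slc4a1a (0.97, 0.88 and 0.93). The deposited values are not scaled, so the brightness of a whole array enters every gene and can raise r, and its part was not tested. No relation passed on the 6 samples with median scaling or cyclic loess. With 8 samples klf1 and tal1 with alas2 (0.79 and 0.89) and tal1 with slc4a1a (0.90) passed. The 8-sample permutation p-values treat hypoxia 1 and 4, and normoxia 3 and 4, as separate samples. Each of these pairs was at least as alike as the repeat arrays of normoxia 2. They hold the highest hypoxia and the lowest normoxia values of the factors, so these p-values may be too small. Relations within groups were not run with a sample left out, which leaves 5.

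With the array number of the labels as a replicate block over the 8 samples, 1071 probe sets were called. The differences of gata1a, tal1 and lmo2, unchanged by construction at 0.90, 1.01 and 1.11, were all past the threshold. Deviations of same-numbered samples from their group means correlated at 0.18, 0.11, 0.07 and -0.09. Normoxia 1, 2 and 3 and hypoxia 1 and 2 correlated best with their own number, while normoxia 4 and hypoxia 3 and 4 did not. Correlations this weak cannot decide whether the numbers pair the samples. In the other fits the factors stayed short of the threshold and above 0.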
